A study of Mus musculus with 27 samples.

Results

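DNA methylation was compared between hepatocytes of the inbred mouse strains C57BL/6J and DBA/2J, the parents of the BXD panel of recombinant inbred lines. The comparison holds 6 of the 27 samples of the study, which were all 3 samples labelled C57BL/6J and all 3 labelled DBA/2J. The whole study profiled liver hepatocytes of 9 inbred strains by reduced representation bisulfite sequencing (RRBS), beside histone marks and gene expression, to relate genetic variation to variation in these layers. Both groups were female, 12 weeks old and without a stated treatment or transgene, so strain is the labelled difference between them. C57BL/6J was represented by replicates 1, 2 and 4 and DBA/2J by replicates 2, 3 and 4, and the labels call these biological replicates without naming the animals. If samples shared an animal or a preparation, the p-values below measure the spread between samples only.

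A CpG is a cytosine followed by a guanine, and in mammals most methylated cytosines lie in CpGs. CpG-dense gene promoters are usually unmethylated, and gene bodies and the DNA between genes are usually methylated. In RRBS, the enzyme MspI cuts at CCGG, bisulfite turns unmethylated cytosine into uracil, and a cytosine that is still read as cytosine counts as methylated. C57BL/6J is the strain of the mouse reference genome, so a CpG that only DBA/2J carries is absent from that reference.

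The deposited values are percent methylation at single positions, with the strands of a CpG listed apart, and hold no read depth. In the 6 samples, 3933390 positions were listed at least once and 2356490 (59.9%) were listed in all 6, against 1692477 positions shared by all 27 samples. The C57BL/6J samples listed 2916034, 3072877 and 3029124 positions and the DBA/2J samples 3121048, 3086803 and 3114054. These ranges did not overlap, which is the smallest p that 3 against 3 samples allow (exact permutation test, two-sided, p = 0.1). The mean level over the shared positions was 37.8, 38.0 and 37.9% in C57BL/6J and 38.0, 37.9 and 38.0% in DBA/2J. This difference of -0.0570 percentage points (SE 0.0816) lay within the spread between samples (exact permutation p = 0.6). On the X chromosome the mean level was 56.3, 56.6 and 56.6% in C57BL/6J and 55.4, 54.9 and 54.7% in DBA/2J, so that all C57BL/6J samples were higher, by 1.52 points (SE 0.248, exact permutation p = 0.1). The share of positions listed at neither 0 nor 100% was 26.3, 33.5 and 28.0% in C57BL/6J and 36.9, 32.8 and 35.1% in DBA/2J (exact permutation p = 0.200).

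Methylation at gene starts is shown first, with the sequence. RefSeq promoter windows of GRCm38.p6 run from 250 bases before to 50 bases after a start site, and 11611 of 32851 windows held 5 or more positions listed in all 6 samples. In 10451 of these (90%) both strains had a mean below 10%. In 19 windows (0.164%) the strain means differed by 25 points or more without overlap between the samples of both strains, 10 of them higher in DBA/2J and 9 higher in C57BL/6J. These windows were picked by their difference and are described without a test. The 6 sequences below are those of the 5 windows that lie in a 1 kb tile passing the genome-wide test described further on, and of Tmem267, the window with most positions. They are written 5′ to 3′ in the direction of the gene, with the start site right after the first 250 bases and each CG that was listed in all 6 samples, on at least 1 strand, in capitals. Arap1, a protein-coding gene, lies on the plus strand at chr7:101347819-101348118. Gm51701 and Gm42365 are long noncoding RNA genes on the plus strand at chr9:123924898-123925197 and chr4:155962494-155962793. B3galt4, which codes for a galactosyltransferase of ganglioside synthesis, lies on the minus strand at chr17:33951439-33951738. Gm33022 is a long noncoding RNA gene on the minus strand at chr14:19311640-19311939, and Tmem267, a transmembrane protein gene, lies on the plus strand at chr13:119488223-119488522.
Arap1: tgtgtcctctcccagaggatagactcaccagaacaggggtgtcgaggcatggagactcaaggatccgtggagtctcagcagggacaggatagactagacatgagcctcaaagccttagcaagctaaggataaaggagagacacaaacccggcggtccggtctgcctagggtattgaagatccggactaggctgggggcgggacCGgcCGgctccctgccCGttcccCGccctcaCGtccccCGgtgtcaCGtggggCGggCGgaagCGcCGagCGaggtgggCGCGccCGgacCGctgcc
Gm51701: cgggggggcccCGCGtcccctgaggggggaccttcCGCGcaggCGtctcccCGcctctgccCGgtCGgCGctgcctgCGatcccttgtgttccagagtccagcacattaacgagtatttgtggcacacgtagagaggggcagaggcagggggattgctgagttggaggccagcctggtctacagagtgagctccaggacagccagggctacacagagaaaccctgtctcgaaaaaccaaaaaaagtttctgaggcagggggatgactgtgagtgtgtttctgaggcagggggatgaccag
Gm42365: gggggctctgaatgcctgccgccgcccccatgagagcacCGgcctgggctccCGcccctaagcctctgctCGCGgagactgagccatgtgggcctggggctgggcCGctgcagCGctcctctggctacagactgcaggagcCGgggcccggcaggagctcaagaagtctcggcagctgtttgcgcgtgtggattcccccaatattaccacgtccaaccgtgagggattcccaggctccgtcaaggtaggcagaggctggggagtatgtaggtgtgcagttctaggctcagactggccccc
B3galt4: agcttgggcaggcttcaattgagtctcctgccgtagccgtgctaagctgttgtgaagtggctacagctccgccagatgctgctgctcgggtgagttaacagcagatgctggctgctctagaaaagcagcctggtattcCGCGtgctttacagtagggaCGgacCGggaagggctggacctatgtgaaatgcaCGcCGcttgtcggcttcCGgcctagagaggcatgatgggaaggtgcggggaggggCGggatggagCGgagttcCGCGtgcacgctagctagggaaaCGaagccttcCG
Gm33022: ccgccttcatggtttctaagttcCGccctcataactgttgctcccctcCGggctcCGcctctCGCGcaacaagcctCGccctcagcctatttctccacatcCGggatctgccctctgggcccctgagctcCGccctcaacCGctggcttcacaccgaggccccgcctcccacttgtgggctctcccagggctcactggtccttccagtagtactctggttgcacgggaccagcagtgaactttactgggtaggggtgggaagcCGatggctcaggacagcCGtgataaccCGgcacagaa
Tmem267: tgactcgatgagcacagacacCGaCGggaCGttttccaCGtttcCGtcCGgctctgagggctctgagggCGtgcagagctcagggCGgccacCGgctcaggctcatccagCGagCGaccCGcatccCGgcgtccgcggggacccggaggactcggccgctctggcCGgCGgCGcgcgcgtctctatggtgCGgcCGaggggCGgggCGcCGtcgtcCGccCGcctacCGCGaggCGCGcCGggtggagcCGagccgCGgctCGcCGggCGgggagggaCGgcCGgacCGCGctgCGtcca

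The Arap1 window was almost free of methylation in C57BL/6J (5.48, 2.98 and 3.55% over 31 positions) and reached 47.4, 39.8 and 32.5% in DBA/2J. At 29 of these 31 positions DBA/2J had the higher mean, and the higher level covered both sides of the start site, where 16 of 23 CGs were listed. The Gm51701 window read 0, 0 and 1.79% in C57BL/6J and 63.2, 67.1 and 46.5% in DBA/2J, at 14 positions that all lie in the first part of the window, upstream of the start site. Another 12 positions of this window were listed in every DBA/2J sample and in no C57BL/6J sample, and 4 of those are not on a CG of the reference. The Gm42365 window was at 26.0, 28.9 and 22.9% in C57BL/6J and at 75.6, 69.6 and 78.2% in DBA/2J, higher in DBA/2J at 12 of 12 positions. In all 3 windows DBA/2J was the more methylated strain in every sample.

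The opposite direction was seen at B3galt4, where the window was at 56.3, 60.2 and 62.2% in C57BL/6J and at 15.5, 13.4 and 13.2% in DBA/2J over 24 positions. C57BL/6J was higher at 23 of them. The Gm33022 window was at 61.9, 59.9 and 55.6% in C57BL/6J and at 2.78, 5.13 and 12.3% in DBA/2J, with C57BL/6J higher at 24 of 24 positions. At Tmem267 the C57BL/6J samples were far apart from each other, at 51.0, 61.7 and 28.0% over 72 positions, while DBA/2J stayed at 5.34, 7.95 and 4.81%. The window of the long noncoding RNA gene 3110070M22Rik overlaps it on the other strand and had 62.4, 74.4 and 35.6% in C57BL/6J against 5.70, 7.43 and 4.42% in DBA/2J. Both strains were near 0 to 13% more than 160 bases before the Tmem267 start, and they parted closer to the start. The Tmem267 window lies 78966 bp from Nnt, a mitochondrial transhydrogenase gene that is known to carry a deletion in C57BL/6J. Other strains were methylated in this window too, at 63.0% in NOD/ShiLtJ, 62.0% in WSB/EiJ, 40.5% in A/J and 29.5% in 129S1/SvImJ. PWK/PhJ was at 17.8%, NZO/HlLtJ at 4.09% and CAST/EiJ at 3.73%, and a link to Nnt was not tested.

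**Figure D1:**
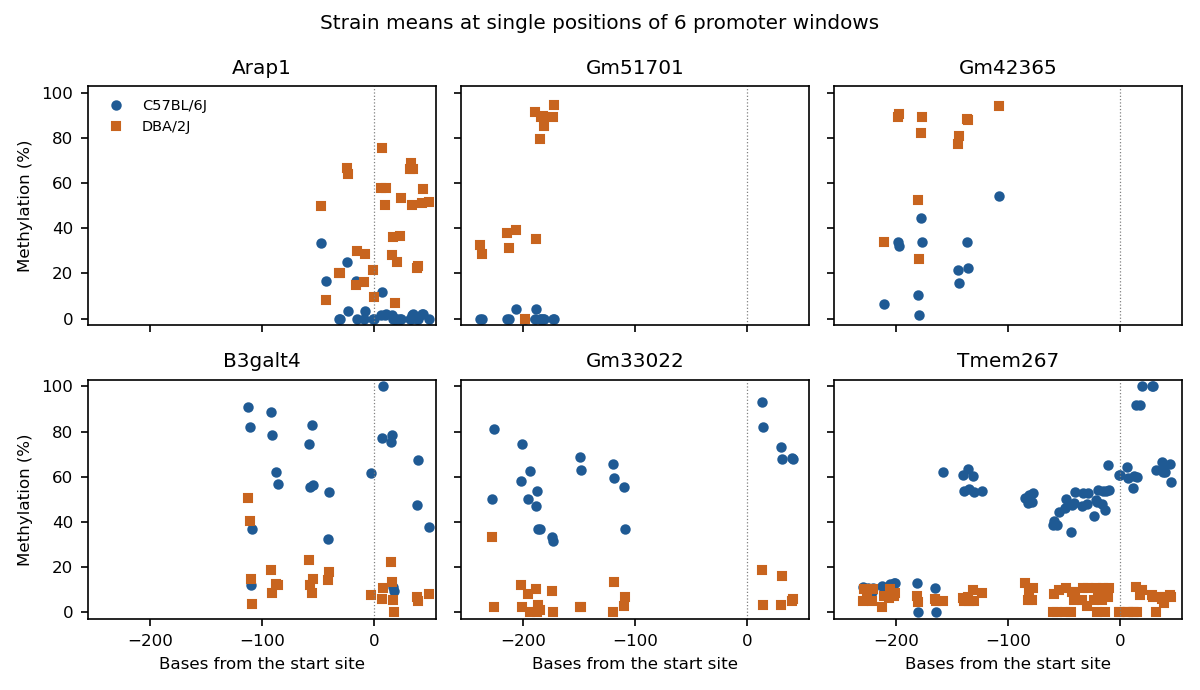
Strain mean methylation (%, vertical axis) at every position listed in all 6 samples in the 6 promoter windows whose sequence is printed, against the distance from the start site in bases (horizontal axis, dotted line at the start). Circles are the mean of 3 C57BL/6J samples and squares the mean of 3 DBA/2J samples; DBA/2J lies above at most positions of the upper row and C57BL/6J at most positions of the lower row, and both are low at the far left of Tmem267.

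The MspI site CCGG, which reads the same on both strands, was present in 52.8% of all 32851 windows and in all 6 printed windows, with 7 copies in Arap1, 1 in Gm51701, 3 in Gm42365, 2 in B3galt4, 3 in Gm33022 and 8 in Tmem267. Where RRBS reads start and end follows from these sites. The capitals mark only CGs listed in all 6 samples, so a CG in small letters can still have been listed in some of them. At Tmem267, 20 positions were listed in every C57BL/6J and no DBA/2J sample. Another 6 were listed in DBA/2J only, all not on a CG of the reference. At B3galt4 these numbers were 6 and 0.

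The other windows of the 19 had smaller differences or more spread. Higher in DBA/2J were St7 (35.0 ± 15.0 against 74.4 ± 15.1%, mean and SD, n = 3 each), Shroom3, which codes for an actin-binding regulator of cell shape (24.1 ± 10.7 against 62.3 ± 3.94%), and the cyclic AMP phosphodiesterase gene Pde4b (32.3 ± 4.43 against 59.4 ± 8.02%). Prdm9, whose protein places meiotic recombination sites, was at 41.9 ± 11.2% in C57BL/6J and 68.4 ± 8.31% in DBA/2J. The protein-coding gene Spata13 and the lncRNA gene Gm26679 also had the higher mean in DBA/2J, by 26.0 and 32.0 points in size. Rin2, which codes for a Rab exchange factor, went the other way, from 51.0 ± 6.93% in C57BL/6J to 24.8 ± 3.34% in DBA/2J, as did the lncRNA genes Gm4577, Gm32709, Gm33434 and Gm33011 (differences of 25 to 30.3 points). Mcts2, an imprinted retrogene, was at 43.6, 46.2 and 27.1% in C57BL/6J and at 70.9, 66.2 and 56.4% in DBA/2J. At 7 of its 18 positions the strain means differed by 25 points or more, and 4 of these, at -88, -28, -14 and -6 bases from the start, were at 33.2% in C57BL/6J and 100% in DBA/2J. The position 1 base before each of those 4, on the other strand of the same CpG, was at 45.8 to 49.8% in C57BL/6J and 42.3 to 47.2% in DBA/2J. The window mean of DBA/2J thus rests in part on positions of 1 strand.

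For the genome-wide comparison, positions listed in all 6 samples were averaged in 1 kb tiles with 5 or more positions. Of 104858 such tiles, 83681 had a mean over the 6 samples at least 2.5 points away from both 0 and 100% and were tested with limma. Calls required 25 points or more between the strain means and a p under 0.05 after Benjamini-Hochberg adjustment. By this rule 326 tiles (0.390%) were called, 168 of them higher in C57BL/6J (0.201%) and 158 higher in DBA/2J (0.189%). The samples of both strains did not overlap in any of the 326. The median size of the difference was 38.3 points in called tiles, from 25.1 to 89.8, against 2.5 points over all tested tiles. Without the minimum difference 425 tiles passed the adjusted p, and 656 of the tested tiles (0.784%) had a difference of 25 points or more with no overlap, whatever their p. With any 1 of the 6 samples left out, 89 to 144 tiles were called in place of 326, and 73 tiles were called in all 6 such fits. The direction of the 326 could not change in these fits, because the samples of both strains did not overlap.

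Full switches between the methylated and the unmethylated state were a small part of the called tiles. In 18 of 326 tiles the lower strain was below 20% and the higher strain above 80%, 14 of them with the high level in C57BL/6J and 4 with it in DBA/2J. In 150 tiles the lower strain was at 20 to 80% and the higher strain above 80%. In 112 tiles the lower strain was below 20% and the higher at 20 to 80%, and in 46 both were intermediate. Differences of 50 points or more were found in 82 tiles, 49 higher in C57BL/6J and 33 higher in DBA/2J.

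**Figure D2:**
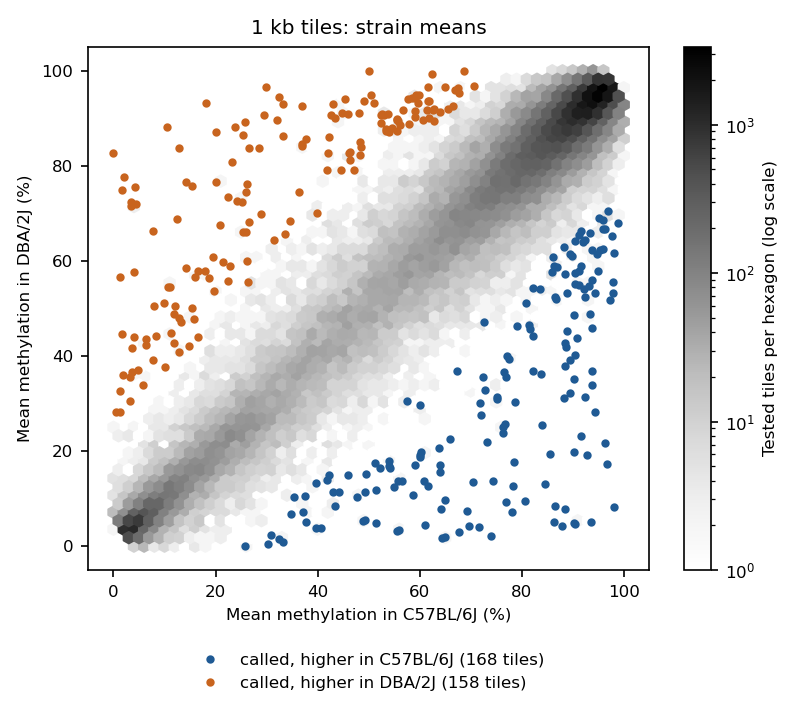
Mean methylation of each tested 1 kb tile in C57BL/6J (%, horizontal axis) against DBA/2J (%, vertical axis). Grey hexagons count all 83681 tested tiles on a log scale and dots are the 326 called tiles; most tiles lie along the diagonal, and the called tiles lie off it on both sides in similar numbers.

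The 12 largest differences in each direction lay in or near genes of varied kinds. The pseudogene Gm12859 on chromosome 4 (tile 118497001 to 118498000) was at 97.1, 98.4 and 98.8% in C57BL/6J and at 5.73, 6.46 and 12.6% in DBA/2J. This was the largest difference of all tested tiles that were called, 89.8 points (SE 2.24, limma adjusted p = 7.45e-04), and the tile also held 10 positions listed in all C57BL/6J samples and in no DBA/2J sample. Ptprk, a receptor tyrosine phosphatase gene on chromosome 10 (tile 28524001 to 28525000, in the gene body), was at 87.9, 92.8 and 90.5% in C57BL/6J and at 5.67, 5.21 and 3.08% in DBA/2J. A tile 29176 bp from Ust, a gene of proteoglycan sulfation, was at 87.6, 91.9 and 91.4% against 4.55, 9.09 and 0.725%. In each of these tiles no sample of 1 strain came within 70 points of the other strain.

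Gene body tiles of 4930519G04Rik (83.5 points, SE 1.11), of Ttc41 with the pseudogene Fabp3-ps1 (81.3 points, SE 4.97) and of Samd4, which codes for an RNA-binding repressor of translation (78.1 points, SE 3.76), were also higher in C57BL/6J. The amino acid transporter gene Slc36a1 on chromosome 11 was at 90, 98.2 and 90.1% in C57BL/6J and at 19.1, 24.9 and 13.4% in DBA/2J. A tile in the lncRNA gene D430020J02Rik, 436 bp from the start of the condensin gene Ncapg2, was at 86.9, 86.2 and 92.3% against 2.5, 8.83 and 12.0%. The remaining tiles of this group were near the pseudogenes Gm7482 and Gm51466, in the pseudogene Gm3786, and in Pik3c3, the lipid kinase gene of autophagy. Pik3c3 (chromosome 18, 30267001 to 30268000) had the widest spread of the 12, with 81.7, 55 and 84.8% in C57BL/6J against 0, 6.08 and 0.421% in DBA/2J.

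In the other direction, the tile at the tRNA gene n-TGgcc4 on chromosome 1 (171044001 to 171045000) read 0% in every C57BL/6J sample and 89.0, 65.8 and 93.3% in DBA/2J over 8 positions (82.7 points higher in DBA/2J, SE 8.53 with all spread on the DBA/2J side). Ldlrad3, a gene of the low density lipoprotein receptor domain family, was at 14.6, 5.09 and 11.8% in C57BL/6J and at 91.1, 91.1 and 82.2% in DBA/2J in its gene body. A tile on chromosome 7 (30314001 to 30315000) overlaps Alkbh6 and holds the start site of Syne4, the gene of a nuclear envelope linker protein. There C57BL/6J was at 0, 0.909 and 5.00% and DBA/2J at 81.0, 81.8 and 70.1%. The tile in Capn5, a calpain gene that here overlaps Omp, was at 0, 29.6 and 25% in C57BL/6J and at 92.1, 93.5 and 94.3% in DBA/2J, so the C57BL/6J samples themselves were spread over almost 30 points.

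Pi4k2a, a phosphatidylinositol kinase gene on chromosome 19, was at 6.75, 1.85 and 4.23% in C57BL/6J and at 78.8, 69.5 and 78.3% in DBA/2J. Pxn, the paxillin gene of focal adhesions, was at 3.96, 4.26 and 2.21% against 67.6, 77.6 and 69.7%. Plac8 differed by 67.1 points in size (SE 4.38), a tile 13578 bp from the gamma-tubulin gene Tubg1 by 68.8 (SE 4.8), a tile near the lncRNA gene Gm40827 by 70.8 (SE 2.16) and a tile 4861 bp from Scaf4, a gene of transcription termination, by 66.6 (SE 4.25). The limma adjusted p of the 24 leading tiles was at most 0.0402.

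**Figure D3:**
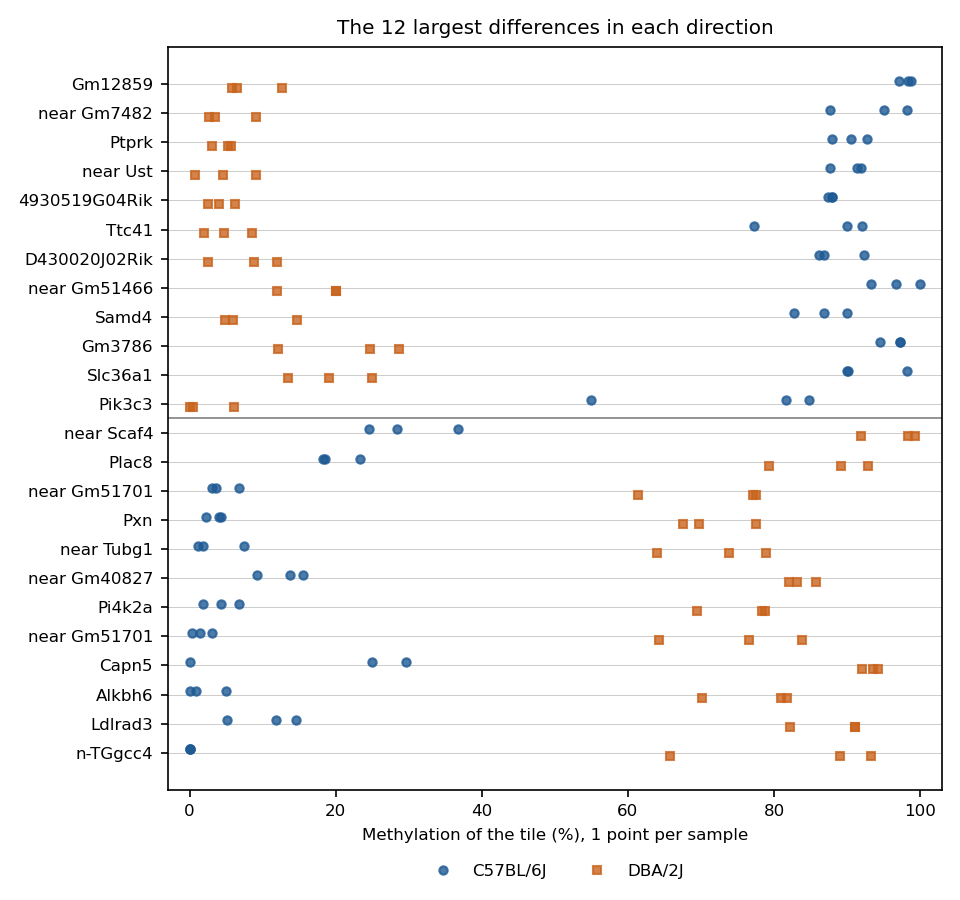
Methylation (%, horizontal axis) of the 12 called tiles with the largest difference in each direction, 1 point per sample, with circles for C57BL/6J and squares for DBA/2J. Tiles above the line are higher in C57BL/6J; no tile shows overlap between the strains, and the widest spread within C57BL/6J is at Pik3c3 and Capn5.

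Tiles within 1 kb of the start of a protein-coding gene were called in 18 of 6800 cases (0.265%), below the share in gene bodies (159 of 42831, 0.371%), in other genes (38 of 7614, 0.499%) and outside genes (111 of 26436, 0.420%). Of these 18 tiles, 11 were higher in C57BL/6J. Beside D430020J02Rik they included Klhl33, a Kelch-like gene, whose start lay in a tile at 62.4, 72.6 and 79.8% in C57BL/6J and at 5.72, 2.17 and 4.28% in DBA/2J. A tile 279 bp from Acpp, an acid phosphatase gene, was at 86.6, 91.6 and 93.3% against 36.3, 41.2 and 43.1%. Pebp1, which codes for an inhibitor of Raf kinase, was at 91.0, 89.3 and 100% against 52.6, 47.3 and 46.4%. The lipase gene Abhd16a (49.3 ± 5.90 against 5.52 ± 5.47%), Tram2 (47.7 ± 8.35 against 10.4 ± 2.33%), Lrrc4c (40.6 ± 9.94 against 3.83 ± 2.53%), Btbd19 (32.5 ± 1.37 against 1.46 ± 1.39%) and the phosphodiesterase gene Gde1 (35.4 ± 5.94 against 10.3 ± 1.17%) went the same way, as did the tiles at B3galt4 and Zfp809.

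The 7 gene starts higher in DBA/2J included Ndufc2, a subunit gene of respiratory complex I on chromosome 7 (tile 97400001 to 97401000). Its start tile was at 0.481, 1.74 and 2.95% in C57BL/6J and at 44.3, 46.8 and 43.0% in DBA/2J over 16 positions. The difference was 43.0 points in size (SE 1.31, limma adjusted p = 0.00278), with small spread in both strains. Bag5, a co-chaperone gene, was at 35.7, 29.8 and 34.3% against 80.7, 83.2 and 94.8%. Pafah2, which codes for an enzyme that breaks down platelet-activating factor, was at 45.5, 59.8 and 63.3% against 90.9, 89.6 and 85.4%. The others were the tiles at Syne4, Arap1 and Sult2b1 and a tile in Trim17, 711 bp from the start of H3f4 (3.68 ± 3.92 against 36.6 ± 8.87%).

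Genes of liver function were read against the 0.390% of all tested tiles that were called. Sulfotransferases and other conjugation enzymes had 1 called tile of 43 (2.33%), at the start of Sult2b1, which sulfates cholesterol. It was at 58.6, 46.5 and 56.8% in C57BL/6J and at 87.6, 87.1 and 86.5% in DBA/2J. Fatty acid and cholesterol synthesis genes had 1 called tile of 140 (0.714%), in Dgat2, the acyltransferase of triglyceride synthesis. That tile was at 0, 5.00 and 5.00% in C57BL/6J and at 35.5, 26.0 and 45.2% in DBA/2J. The list of drug and bile transporter genes had 1 called tile of 291 (0.344%), in Abca17, at 63.9, 77.2 and 74.5% against 33.3, 23.9 and 33.2%. Being on that list does not give the role of Abca17 in liver. The calls of Sult2b1, Dgat2 and Abca17 were all lost with an offset of 1 (limma adjusted p = 0.0501, 0.170 and 0.0738), and that of Dgat2 also with untransformed percentages (0.0566). Without the filter on the mean, Dgat2 (0.0935) and Abca17 (0.0646) were lost. Sult2b1 and Dgat2 were lost whichever of the 6 samples was left out, and Abca17 in 5 of those 6 fits.

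No tile was called for 68 tiles of hepatocyte transcription factors, 162 of nuclear receptors and coactivators, 114 of cytochrome P450 enzymes, 23 of serpins, 48 of fatty acid oxidation, 48 of glucose metabolism, 114 of insulin signalling and 92 of clock genes. The median size of the difference in these 8 lists was 2.12 to 3.45 points, close to the 2.5 points of all tested tiles. Imprinted genes, where the parental alleles differ in methylation within each animal, had no called tile among 183, and genes of the DNA methylation machinery none among 70. Genes known for sequence or copy-number differences between these strains had none among 17 tiles in the 6 of 13 genes that could be tested, and major histocompatibility genes none among 19. At the background share, each of these lists would hold under 1 called tile, so a count of 0 says little about them.

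Zinc finger protein genes had 10 called tiles of 764 (1.31%, against 0.390% of all tested tiles) in 7 of 253 tested genes, 6 tiles higher in C57BL/6J and 4 higher in DBA/2J. This family includes repressors of transposable elements, and its members often lie in clusters. Zfp978 was at 58.6, 47.0 and 60.8% in C57BL/6J and at 1.06, 3.97 and 4.72% in DBA/2J, in a tile with 17 positions listed in C57BL/6J only. Zfp704 was at 49.2, 52.4 and 50% against 92.7, 94.7 and 96.9%. Zfp710 was at 19.4, 14.8 and 8.50% against 63.9, 47.6 and 64.3%. The list held 3 pairs of called tiles that were neighbours, in Zfp697 (1.35 against 28.3% and 53.8 against 90.9%, C57BL/6J first), in Zfp64 (91.3 against 57.9% and 89.4 against 61.4%) and in Zfp809, a silencer of endogenous retroviruses (34.8 against 6.71% and 30.8 against 2.40%). The last called tile of the list was in Zfp382 (86.9 against 58.7%). Since neighbouring tiles share their region, the 10 tiles stand for 7 places.

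Tiles next to a called tile were called more often than tested tiles in general, although most called tiles lay apart from each other. For 61 called tiles the next tile along the chromosome was also tested, and it was called in 19 (31.1%), against 0.390% of all tested tiles. In 19 of 19 such pairs the direction was the same. Where the next tile was not called, its difference still had the same sign in 36 of 42 cases. Between successive called tiles at a gap of 1 to 10 kb the direction was shared by 7 of 9 pairs, at 10 to 100 kb by 8 of 10, at 100 to 1000 kb by 38 of 67 and at 1 to 10 Mb by 62 of 129 (48.1%). The share of pairs with the same direction was larger up to 100 kb than at larger distances, and this difference was not tested.

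The called tiles formed 18 runs of 2 or more neighbouring tiles, holding 37 tiles. The longest run, 3 tiles at the Gm51701 start described above (chr9:123923001-123926000), was at 8.23, 6.07 and 7.35% in C57BL/6J and at 77.6, 78.7 and 64.3% in DBA/2J over 95 positions. It held 38 positions that only DBA/2J listed and 13 that only C57BL/6J listed. The run near Gm7482 on chromosome 7 (63802001 to 63804000) was at 95, 94.2 and 92.1% in C57BL/6J and at 30.9, 30.6 and 26.2% in DBA/2J. Platr25, a noncoding RNA gene on chromosome 13, had a run at 85.9, 84.9 and 86.2% against 15.1, 17.4 and 14.8%. The 71 bp tRNA gene n-TGgcc4 straddles the border of its called tiles, and the run over both was at 0.926, 1.20 and 0.287% in C57BL/6J and at 71.4, 54.2 and 70.2% in DBA/2J. Pik3c3 had a run at 73.1, 60.4 and 75.9% against 0, 5.82 and 0.229%. A run was defined as neighbouring called tiles of 1 direction, so these 5 runs could hold no tile of the other direction.

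Autosomal windows of 1 Mb were compared where they held 200 or more positions, which left 2178 windows with 317 of the 326 called tiles. Of these windows, 245 held a called tile, 57 held 2 or more, and none held more than 4. The window chr12:19000001-20000000 had 4 called of 18 tested tiles (22.2%), all higher in C57BL/6J, including a tile 30185 bp from the lncRNA gene Gm40880 (67.0, 60.7 and 65.5% against 3.11, 1.24 and 1.02%). In that window 64.4% of the positions listed in all samples of a strain were listed in that strain only. Its calls at Gm40847 and at both tiles near Gm40853 were lost whichever DBA/2J sample was left out. Only the call near Gm40880 was kept in those fits. The neighbouring windows that start at 137000001 and 138000001 on chromosome 4 had 3 and 4 called tiles with mixed directions. Hspg2, which codes for the basement membrane proteoglycan perlecan, held adjoining tiles at 26.4, 35.7 and 37.5% and at 29.1, 22.7 and 25.3% in C57BL/6J, against 92.4, 93.3 and 93.5% and 89.8, 86.1 and 92.1% in DBA/2J. Tmco4 (52.6 against 90.9%) and the phospholipase gene Pla2g5 (12.8 against 40.9%) were likewise higher in DBA/2J, while Rap1gap (55.7 against 13.8%), the cytidine deaminase gene Cda (89.5 against 39.1%) and the translation factor gene Eif4g3 (91.7 against 59.0%) were higher in C57BL/6J. The calls of Tmco4, Pla2g5, Rap1gap, Cda and Eif4g3 were lost whichever DBA/2J sample was left out. Both Hspg2 tiles kept theirs, so the mixed directions of these windows rest on calls that passed only with all DBA/2J samples. Leaving out 1 sample also lowered the residual degrees of freedom from 4 to 3, and the part of this in the lost calls was not tested. On chromosome 5, the window that starts at 117000001 had 3 called tiles, all higher in C57BL/6J. They lay at Gm3786, Pebp1 and the lncRNA gene Gm42011 (61.1 against 4.38%). The Pebp1 call was also lost whichever DBA/2J sample was left out.

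By chromosome, the share of tested tiles that were called was highest on 16 (15 of 2444, 0.614%), 7 (31 of 5253, 0.590%) and 4 (33 of 6033, 0.547%). Among the autosomes and X it was lowest on X (4 of 2890, 0.138%), and none of the 12 tested tiles on Y was called. All 6 samples are labelled female, yet 832 to 978 positions on Y were listed in the C57BL/6J samples and 1221 to 1406 in the DBA/2J samples, and whether these come from mapping or from the samples was not tested. Directions were uneven on some chromosomes, with 12 tiles higher in C57BL/6J and 5 higher in DBA/2J on 5, 15 and 9 on 9, 13 and 20 on 4, and 6 and 11 on 3. Chromosome 12 had 10 tiles higher in C57BL/6J and 2 higher in DBA/2J, 4 of the 10 in the window that starts at 19000001. No split by chromosome was tested, and neighbouring called tiles often shared a direction.

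Positions listed by only 1 of the strains mark where their DNA, or the reading of it, differs. There were 104221 positions in all C57BL/6J and no DBA/2J samples (4.05% of the C57BL/6J positions) and 102433 in all DBA/2J and no C57BL/6J samples (3.79%). Their mean level was 69.8 ± 0.208% in C57BL/6J and 68.0 ± 0.110% in DBA/2J (SD, n = 3), above the 37.9% of shared positions in both strains. In the promoter windows the sequence could be read: 275254 of 275298 shared positions (99.98%) and 3773 of 3786 C57BL/6J-only positions lay on a CG of the reference. Of 4258 DBA/2J-only positions there, 1275 (29.9%) did not.

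Called tiles were more frequent where strain-only positions were frequent. In 1 Mb windows with under 2% strain-only positions, 23 of 22761 tested tiles were called (0.101%). The share was 0.216% at 2 to 5%, 0.454% at 5 to 10%, 0.899% at 10 to 20% and 1.26% (53 of 4215) at 20% and above. Tiles that themselves held no strain-only position showed the same order, from 0.0963% to 0.758% (18 of 2375). Of the 326 called tiles, 152 (46.6%) held a strain-only position, against 14.2% of the tested tiles. Among called tiles higher in C57BL/6J, 55 held C57BL/6J-only and 52 held DBA/2J-only positions, and among those higher in DBA/2J these numbers were 45 and 50. Across windows, the Spearman correlation of the share of strain-only positions with the share of called tiles was 0.168 (n = 2178 windows of the same 6 samples, given as a description). The part of DNA variants, of the genome used for mapping and of read depth in these values was not tested.

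**Figure D4:**
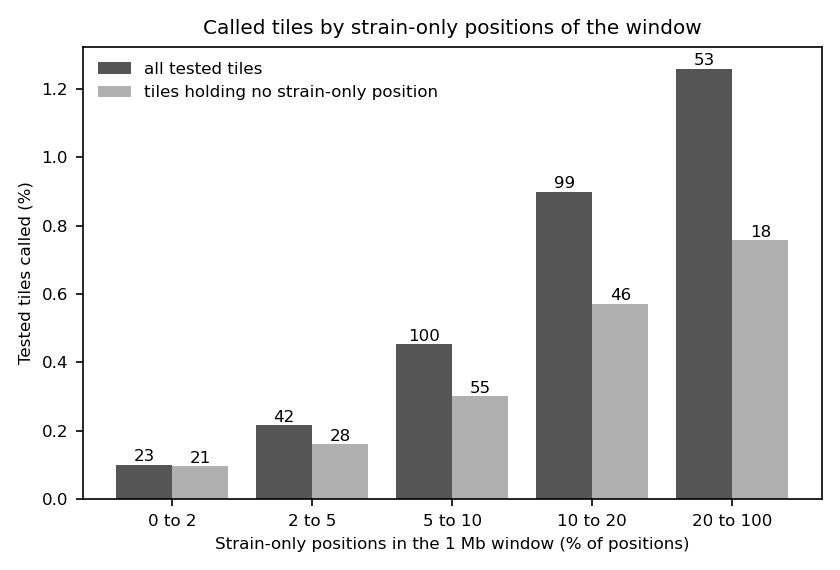
Share of tested tiles that were called (%, vertical axis) in autosomal 1 Mb windows binned by the share of their positions that only 1 strain listed (%, horizontal axis). Dark bars are all tested tiles and light bars tiles with no strain-only position; numbers above the bars are called tiles, and the share rises from 0.101% to 1.26% in all tiles and from 0.0963% to 0.758% in tiles with no such position.

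The remaining 7 strains were set beside the parents at the called tiles. Each had 3 samples, and a level was taken over the positions of the tile that its samples also listed. At each called tile with a level, a strain was counted as nearer C57BL/6J or nearer DBA/2J. The share nearer C57BL/6J was 40.7% in A/J (127 of 312 tiles), the lowest, and 45.9% in CAST/EiJ (123 of 268), the highest. Each strain was also on the more methylated side of the called tiles at 51.5% (WSB/EiJ) to 63.9% (PWK/PhJ) of them. Of 229 tiles with a level in all 7, C57BL/6J stood apart from all of them in 21 (the lower parent in 14) and DBA/2J in 10 (the lower parent in 9), and the other 198 had strains on both sides. Between 20% (129S1/SvImJ) and 27.8% (PWK/PhJ) of levels lay in the middle part between the parents, more than 25% of the parental difference away from both.

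Tiles in which C57BL/6J stood apart included the tile near Tubg1, where DBA/2J was at 72.3% and the other 7 strains were between 57.7 and 77.1% against 3.48% in C57BL/6J. DBA/2J stood apart at Slc36a1, where C57BL/6J was at 92.8% and the other 7 strains at 86.2% or more, against 19.1% in DBA/2J. The high level at n-TGgcc4 was shared by DBA/2J (82.7%) and 129S1/SvImJ (85.6%), and the remaining 6 strains were at most 0.962%, like C57BL/6J. The same was seen in the Gm51701 promoter window, with 59.0% in DBA/2J, 73.4% in 129S1/SvImJ and at most 6.67% in the others. Near Gm7482 the high level of C57BL/6J (93.6%) was shared with A/J (88.1%) alone, the next being CAST/EiJ at 4.52%. At the Arap1 window no other strain reached the 39.9% of DBA/2J, and PWK/PhJ (20.8%) and CAST/EiJ (19.1%) came nearest. At Klhl33, CAST/EiJ (49.2%) was the only strain besides C57BL/6J (71.6%) above 11%.

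**Figure D5:**
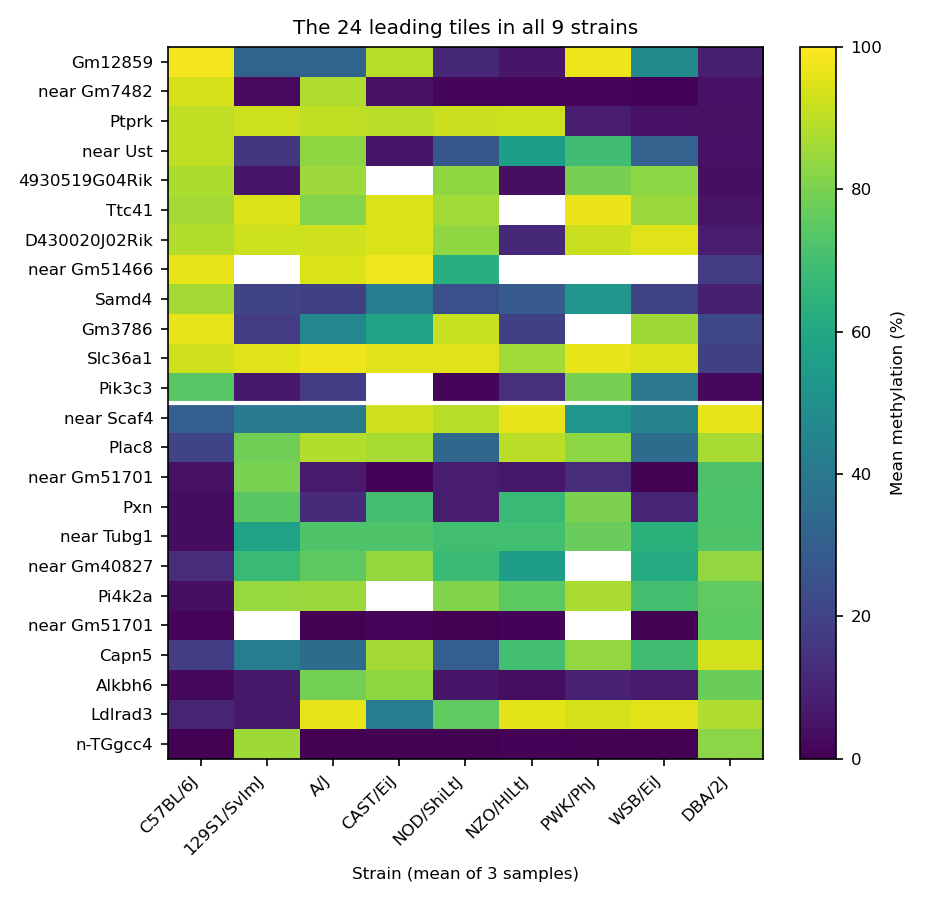
Mean methylation (%, colour) of the 24 leading tiles in all 9 strains (columns, mean of 3 samples each), with C57BL/6J at the left edge and DBA/2J at the right edge; white cells have no level. The upper 12 tiles are higher in C57BL/6J and the lower 12 in DBA/2J, and the strains between them lie near 1 parent or between both, in an order that varies among tiles.

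At single positions, 1116293 were tested and 323 (0.0289%) were called by the same rule, 215 higher in C57BL/6J and 108 higher in DBA/2J. Their median difference was 94.4 points in size. Of the 323, 207 lay in a tested tile and 111 in a called tile, and 111 of 111 had the direction of that tile. At an unadjusted p under 0.05, 63874 positions (5.72%) and 8265 tiles (9.88%) passed, against 5% expected with no difference. The number of called positions was 99 with an offset of 1 in the log ratio and 0 with a replicate block. Among positions listed in all 27 samples it was 500, and 3347 when the spread was also taken over the 27 samples.

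Correlation between samples over tested tiles was 0.959 to 0.966 within C57BL/6J, 0.972 to 0.974 within DBA/2J and 0.953 to 0.962 between the strains, given as a description. The weights that limma estimated were 0.7002, 1.092 and 0.7921 for the C57BL/6J samples and 1.289, 1.073 and 1.194 for DBA/2J, lowest for replicates 1 and 4 of C57BL/6J. The cell type label could be checked little by methylation, because 3 of 12 hepatocyte marker genes had enough positions near their start. These were Apob (10.4% in C57BL/6J and 11.3% in DBA/2J), Fgb (6.08 and 6.88%) and Hpx (20.4 and 12.2%), all low in both strains. Hpx rested on 3 positions and read 33.3, 0 and 27.8% in the C57BL/6J samples. Low starts were also found among markers of other cell types. In C57BL/6J the genes ranged from 2.58 to 92.0% in endothelial, 0.610 to 11.6% in stellate cell and 0.762 to 50.1% in cholangiocyte markers. A low start therefore did not set the hepatocyte markers apart. Of the marker genes of leukocytes, endothelium, stellate cells and cholangiocytes that could be read, none differed by 25 points. The largest difference was at Spp1, a cholangiocyte marker, with 58.5, 51.9 and 39.9% in C57BL/6J and 60.7, 68.0 and 64.5% in DBA/2J.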

How the data were processed

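RRBS was performed on hepatocyte DNA of 27 samples, and 6 were compared here. Per the submitters' processing notes, Trim Galore 0.6.3, Bowtie2 and Bismark 0.22 were used, with builds named GRCm38 and mm10; whether a strain's own genome served as reference is not given in the sources used here. The deposited files hold percent methylation per position, per the file headers, without coverage, so counting error could not be given and depth is unknown. The C57BL/6J files name the mitochondrion M and the others MT, and a difference in processing behind this cannot be told apart from strain. Coordinates and names are those of RefSeq on GRCm38.p6. The gene table gives spans without exons, and the promoter table misses some genes, chromosome 18 included, so tiles there are never counted as gene starts.

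Tile means of 5 or more positions shared by the 6 samples, with a mean of 2.5 to 97.5%, were transformed to log2((percent + 5)/(100 - percent + 5)) and tested with limma 3.58.1 (R 4.3.3) on these 6 samples, with Benjamini-Hochberg adjustment over all tiles; single positions were tested in the same way. A call needed an adjusted p under 0.05 and 25 points. Single values per sample were compared by exact permutation tests (scipy 1.17.1). The fit was tested on simulated data. Replicate numbers 2 and 4 occur in both strains, and same-numbered samples did not deviate together (correlations -0.00781 and -0.00536), so no block was used. Named are the 12 largest called tiles per direction, the 5 windows and the 5 runs with most called tiles, the 3 genes with most (20 genes tied at 2, ordered by size of difference) and up to 4 called tiles per gene list. The gene-start tiles, the remaining zinc finger tiles, the promoter windows, strain-only measures and bins, and the comparison with other strains were chosen after their values were seen. The members and lists were chosen with earlier results of these data known.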

Additional observations from a re-analysis of the deposited data

How the results depend on the processing

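The number of called tiles fell whichever sample was left out, in fits with 3 residual degrees of freedom in place of 4. The direction of the 326 could not change in these fits, because the samples of both strains did not overlap in any of them. Leaving out 1 sample left 89 to 144 called tiles, 49 to 79 of them higher in C57BL/6J and 40 to 65 higher in DBA/2J, and 205 to 297 called positions; each of the 6 samples lowered the tile count by over 1.5 times. With a replicate block, which left 1 residual degree of freedom, 0 tiles and 0 positions were called by limma. In that fit 6633 tiles and 79369 positions had an unadjusted p under 0.05. Why no call was left was not tested. An offset of 1 gave 144 tiles (74 higher in C57BL/6J, 70 higher in DBA/2J) and 99 positions. Without the filter on the mean, 207 tiles (105 and 102) and 1788 positions were called. With at least 10 positions per tile, 203 of 31762 tiles were called (93 higher in C57BL/6J and 110 in DBA/2J), 143 of which are among the 326. Positions listed in all 27 samples gave 213 tiles (108 and 105) of 44250 and 500 positions. When the spread was also shared over the 27 samples, 327 tiles (167 and 160) of 44250 and 3347 positions were called. Of the 326 main calls, 180 could be tested in that fit and 171 were called again. Untransformed percentages gave 1569 positions. The causes of the differences between position counts were not tested. Of 50 named tiles, 34 kept their call under every alternative in which they could be tested, other than the block; 25 tiles had a value with at least 10 positions, 28 with positions of all 27 samples and 37 with strands averaged, and shifted tiles were compared by their count alone. Calls were lost in some at Sult2b1, Dgat2, Abca17, Capn5, Pebp1, Zfp710, Cda, Rap1gap, Eif4g3, Pla2g5, Tmco4, Gm40847, both Gm40853 tiles, and 1 tile each of Pik3c3 and Zfp697. None was reversed in 768 alternative values. In fits that used the same tile means, or left out 1 sample, a reversal was not possible, because the samples did not overlap. The depth behind single positions is unknown, and its effect could not be measured.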
